A study of Mus musculus with 6 samples.

Results

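The proneural bHLH and Myt1 factors are transcription factors that commit neural progenitors to becoming neurons and carry that programme through. The 9 genes described here are Neurog1, Neurog2, Neurod1, Neurod2, Neurod4, Neurod6, Atoh1, Myt1 and Myt1l, out of 37001 genes on the arrays, and their 15 probes, out of 56583, were taken by the gene name in the scanner files. They were measured in 6 teratomas, tumours of mixed tissues that mouse embryonic stem cells (mESCs) form in a host unable to reject them. The host was the BALB/c Nude mouse, an immunodeficient strain whose thymus does not develop and which keeps B cells and natural killer cells. Mice were allotted at random to 2 groups of 3.

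Both groups carried the same kind of mESC graft under the skin and received their small RNA by injection into the tumour in a delivery reagent, Atelogen QG. The control group received a miRNA negative control and the other group a mimic of miR-124a-3p, each at 15 µg in 100 µL. Dosing began about 10 days after the cells were implanted, at a tumour volume of at least 100 mm3, and was repeated at intervals of 3 days up to day 28. The labels do not give the genotype or line of the stem cells or the age of the mice. The comparison asks which transcripts differ in abundance after the mimic. Each tumour was cut into 2 pieces and 1 of them was used for RNA, so a value is an average over every tissue in that piece. In such RNA, fewer cells of a type and less RNA per cell cannot be told apart. How much mimic entered the cells was not analysed here.

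Neurogenins and Atoh1 are proneural factors of the basic helix-loop-helix (bHLH) family. They act in dividing progenitors, pair with an E protein, bind E-boxes in DNA, and switch on Notch ligands as well as the next tier of factors. The NeuroD proteins are bHLH factors of that next tier, which act while the neuron matures. Myt1 and Myt1l are zinc finger proteins, and Myt1l is known for repressing the genes of other lineages in neurons and for its part in converting fibroblasts to neurons. The microRNA miR-124 is abundant in neurons and represses messenger RNAs of non-neuronal cells, and the repressor REST holds its genes silent outside neurons.

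The promoters of Neurod1, Neurod2 and Myt1l are shown because E-boxes are the sites through which proneural factors act. Each line gives 250 bases that end just before a RefSeq transcription start (build GRCm38.p6), written 5′ to 3′ on the strand of the gene. Capitals mark the E-boxes CAGATG (or CATCTG on the other strand), CAGCTG and CATATG, the forms of the general motif CANNTG searched for here.
Neurod1, chr2:79456637-79456886, minus strand: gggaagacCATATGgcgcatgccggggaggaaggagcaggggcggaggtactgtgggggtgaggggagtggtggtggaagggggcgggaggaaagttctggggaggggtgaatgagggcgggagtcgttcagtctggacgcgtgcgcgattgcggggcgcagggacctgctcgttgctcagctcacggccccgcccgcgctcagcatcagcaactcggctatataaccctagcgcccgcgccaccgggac
Neurod2, chr11:98329646-98329895, minus strand: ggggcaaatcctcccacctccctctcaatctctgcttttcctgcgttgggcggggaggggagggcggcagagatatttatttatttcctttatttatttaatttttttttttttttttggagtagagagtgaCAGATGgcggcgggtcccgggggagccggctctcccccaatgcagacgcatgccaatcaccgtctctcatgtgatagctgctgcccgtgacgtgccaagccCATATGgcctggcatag
Myt1l, most upstream of its 5 starts, chr12:29528134-29528383, plus strand: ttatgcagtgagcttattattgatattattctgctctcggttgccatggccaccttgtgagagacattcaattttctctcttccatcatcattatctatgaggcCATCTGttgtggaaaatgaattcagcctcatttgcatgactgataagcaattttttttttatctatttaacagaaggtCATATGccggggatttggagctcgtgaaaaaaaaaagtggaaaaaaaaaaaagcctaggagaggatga
All 9 genes had an entry, with 16 such windows among them because Myt1, Myt1l and Neurod4 have several starts.

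CATATG was found in 3 of the 16 windows, those printed above, and in 3.46% of 32851 mouse windows of the same length. In the printed windows it begins 242 bases before the start in Neurod1, 17 in Neurod2 and 68 in Myt1l. CAGATG or its complement lies 118 bases before the start of Neurod2 and 146 before that of Myt1l, and was found in 4 member windows against 14.4% of all. CAGCTG was in 1 member window, at a further start of Myt1l, against 13.0%, and any of the 3 motifs in 6 member windows against 28.1%. These 6 windows are those of Neurod1 and Neurod2 and, for the rest, windows at different starts of Myt1l. The 4 windows with CAGATG are that of Neurod2 and, for the rest, also Myt1l windows. Windows of 1 gene are not separate genes. The windows of Neurog1, Neurog2, Neurod4, Neurod6, Atoh1 and Myt1 held none of them. A match describes the letters only, and binding was not measured here.

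The arrays were alike in the share of probes detected and in intensity, but not in every measure. The weight that limma gives an array by its spread ran from 0.62 (control 3) to 1.88 (miR-124a 3). Outlier spots ran from 40 (miR-124a 3) to 121 (control 3). Between 63.4% and 65.9% of probes per array were well above background, no spot was saturated on any array (0 spots), and the 75th percentile of intensity ran from 278.6 to 315.2. Levels below are log2 of the intensity minus that 75th percentile, so that 0 marks a spot at the 75th percentile of its array, and each unit is a doubling. The 3 control tumours lay in row 1 and the 3 miR-124a tumours in row 2 of the slide, so slide row and treatment cannot be told apart. Neural tissue was present in both groups, with the neuron-specific tubulin Tubb3 between 3.40 and 4.21 on this scale. The summed level of 17 neuron markers, relative to the 75th percentile and not in log units, was 164 to 197 in controls and 226 to 287 in miR-124a tumours. Since the number of arrays is small, precision is limited by the 3 tumours per group, and an exact permutation test of 3 against 3 cannot give a two-sided p below 0.1.

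Of the 9 genes, 6 were bright enough to test and 3 were not. All 6 tested genes had higher means in the miR-124a tumours, but 0 of 6 passed the threshold of 0.05 on the p-value adjusted over 22946 genes (limma with Benjamini-Hochberg adjustment). Over all genes 3.23% passed and 0.488% passed as higher. At an unadjusted p under 0.05 there were 2, Neurod2 and Myt1l, against 11.4% of all genes higher at that level. The median log2 difference of the 6 genes was 0.53, against -0.00 over all genes. Among the 6, Myt1l alone had all 3 miR-124a tumours above all 3 controls, a pattern that 15.0% of all genes had. A higher mean was found for 49.7% of all genes.

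**Figure D1:**
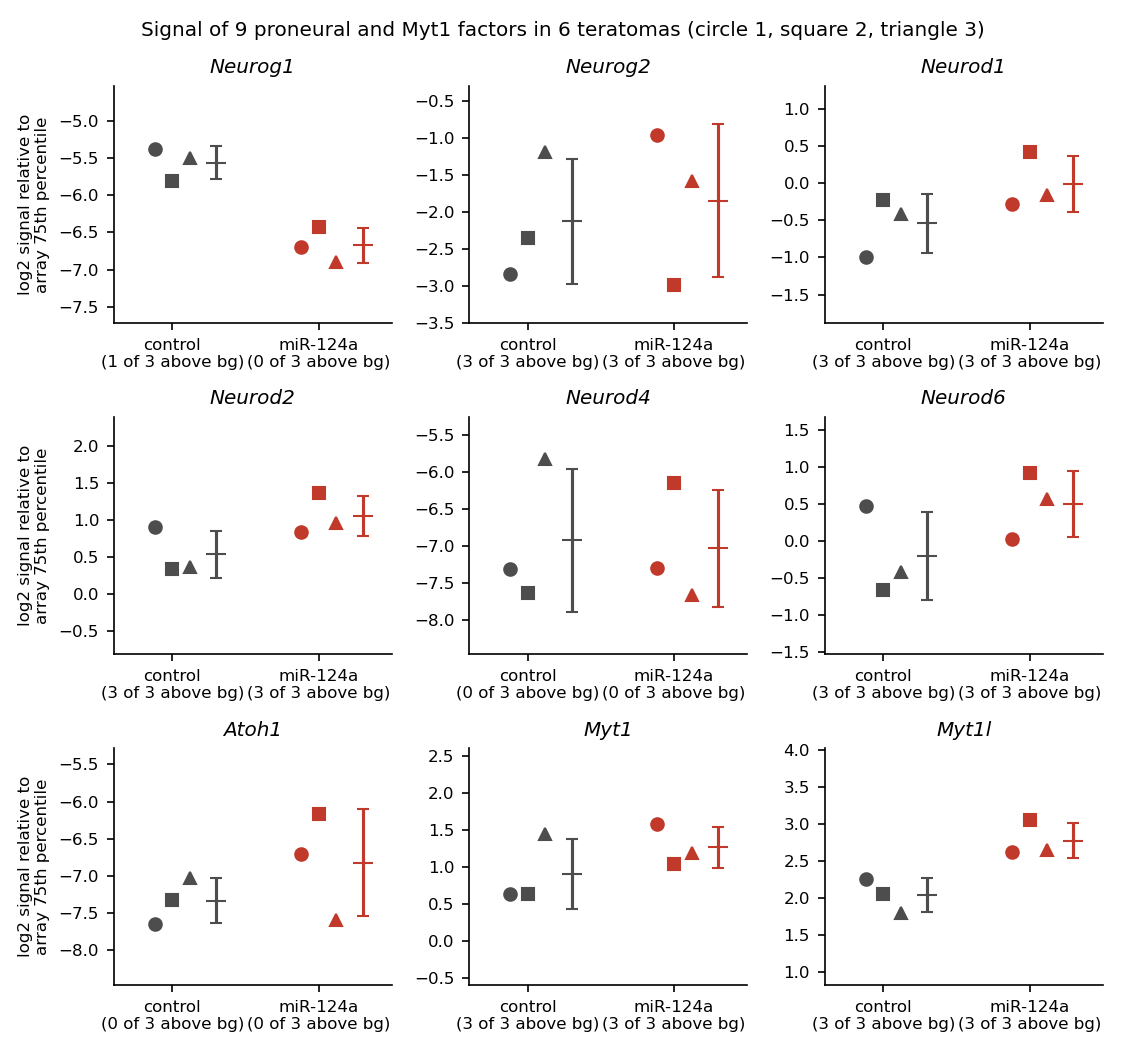
Signal of each of the 9 factors in each tumour, as log2 relative to the 75th percentile of the array, at the probe that stands for the gene. Grey is control and red is miR-124a, the marker shape gives the tumour number, the bar is the mean ± SD (n = 3), and the lower axis gives the number of arrays well above background. The groups of Myt1l do not overlap among the tested genes, and Neurog1, Neurod4 and Atoh1 were too dim to test.

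The early proneural factors were dim. Neurog1, which helps to specify sensory neurons and parts of the dorsal brain, was well above background in 1 of 3 control tumours and in 0 of 3 miR-124a tumours. Its levels were -5.37, -5.80 and -5.50 in control 1 to 3 and -6.69, -6.43 and -6.90 in miR-124a 1 to 3. The groups do not overlap, but 5 of these 6 values were not well above background, and the bound that the detection limit allows gives no fold. In a fit without the filter on dim probes its log2 difference was -1.12 ± 0.17 (SE), which did not pass over all genes (limma, adjusted p = 0.0774). The probe lies on chromosome 13 at 56352641 to 56352700, minus strand, in build mm9, the build of the array annotation used for every probe here. No gene model of that build was at hand, so exon or untranslated region was not looked up for any probe.

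Atoh1, the proneural factor of cerebellar granule cells, hair cells, Merkel cells and secretory cells of the gut, was not well above background in any of the 6 tumours. Its values were -7.65, -7.33 and -7.03 in controls and -6.71, -6.17 and -7.60 in miR-124a tumours, so the groups overlapped at the bottom of the scale. Its probe is on chromosome 6 (64681161 to 64681220, plus strand). Markers of cell types that use Atoh1 are given beside it. Of 8 markers of goblet and Paneth cells all were tested and 1, the mucus layer protein Zg16, fell (limma, adjusted p = 0.0350), with a list median of -0.54. Zg16 was well above background in 0 of 3 miR-124a tumours, and its call was lost with normexp background correction (adjusted p = 0.0586). The hair and Merkel cell factor Pou4f3 was well above background in 0 of 6 tumours. Of 7 tested markers of Merkel and hair cells 1, Pvalb, fell (-1.89 ± 0.32, adjusted p = 0.0395). Parvalbumin is also a protein of fast skeletal muscle, and all 8 skeletal muscle markers fell in the same tumours, with a median of -1.64. Leaving out control 3 or miR-124a 3 kept 6 of these 8 calls, and leaving out any of the other tumours kept 0. Over the same 6 fits Pvalb passed in 1, and Zg16 in 2. The part of muscle in the Pvalb value was not tested.

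Neurog2, which drives cortical and spinal progenitors towards glutamatergic neurons, was the one neurogenin detected in every tumour. Its probe is on chromosome 3 (127337805 to 127337864, plus strand). Its levels were -2.84, -2.35 and -1.20 in control 1 to 3 and -0.97, -2.99 and -1.59 in miR-124a 1 to 3. The highest and the lowest tumours of all 6 were both in the miR-124a group, so the groups overlapped throughout. Their means were -2.13 ± 0.84 and -1.85 ± 1.04 (SD, n = 3 each). The log2 difference of 0.28 ± 0.62 (SE) was smaller than the spread between tumours (limma, adjusted p = 0.795), with a 95% interval of -1.22 to 1.78. Leaving out control 1 gave -0.07, leaving out miR-124a 1 gave -0.16 and leaving out miR-124a 2 gave 0.85, so these data give no direction for Neurog2.

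Of the 4 NeuroD factors, Neurod1, Neurod2 and Neurod6 had higher means with miR-124a without passing the test, and Neurod4 was too dim to test. Neurod1, a differentiation factor of neurons and of endocrine cells in pancreas and gut, has its probe on chromosome 2 (79292819 to 79292878, minus strand). It had levels of -0.99, -0.22 and -0.41 in control 1 to 3 and -0.28, 0.42 and -0.16 in miR-124a 1 to 3. Control 1 was lowest of all, but control 2 lay above miR-124a 1, so the groups overlapped. The means of -0.54 ± 0.40 and -0.01 ± 0.37 (SD) differed by 0.53 ± 0.26 (SE), or 1.44-fold, and the 95% interval was -0.11 to 1.17 (limma, adjusted p = 0.247).

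Because Neurod1 also serves endocrine cells, their markers are given beside it. Of 9 tested endocrine genes 1, the hormone gene Ghrl, fell by 2.16 ± 0.30 on the log2 scale (limma, adjusted p = 0.0277), and 8 did not pass. The Ghrl call held in 2 of 6 fits that left out 1 tumour. Among these, the hormone genes Ins2, Sst and Gcg had 0.67 (adjusted p = 0.107), 0.70 (0.166) and -0.70 (0.186), and the granule protein gene Chgb had 0.45 (0.144). In all, 7 of the 9 had higher means with miR-124a. Gcg was named outside the rule on smallest p, and Chgb and Sst are made by neurons as well. The summed level of the 9 markers was 50.4 to 64.6 in controls and 71 to 86.7 in miR-124a tumours, and Chgb and Sst made up most of it. Without them the sum was 17.2 to 24.9 in controls and 22.2 to 28.9 in miR-124a tumours, and these ranges overlapped. Of the genes left, Cck and Chga had the highest control means, 2.92 and 2.88 on the log2 scale. Both were highest in control 1 and in miR-124a 2, as were 7 of 17 neuron markers. Whether this remaining sum reads endocrine cells alone was not tested. The part of endocrine cells in the Neurod1 value was not tested. Neurog3, the bHLH factor that starts the endocrine lineage, was not well above background on any array.

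Neurod2, a factor of maturing cortical and hippocampal neurons, has its probe on chromosome 11 (98187943 to 98188002, minus strand). It stood at 0.90, 0.34 and 0.36 in control 1 to 3 and at 0.84, 1.36 and 0.96 in miR-124a 1 to 3. Control 1 reached above miR-124a 1, so the groups overlapped by that pair. The means of 0.53 ± 0.32 and 1.05 ± 0.27 (SD) differed by 0.52 ± 0.21 (SE), or 1.44-fold. The 95% interval of the difference was 0.02 to 1.02, and the value did not pass over all genes (limma, unadjusted p = 0.0438, adjusted p = 0.171).

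Neurod6, which is known for marking pyramidal neurons of the cortex, has its probe on chromosome 6 (55628006 to 55628065, minus strand). It stood at 0.47, -0.66 and -0.42 in control 1 to 3 and at 0.03, 0.91 and 0.56 in miR-124a 1 to 3. Control 1 was again high for its group and lay above miR-124a 1. The means of -0.20 ± 0.60 and 0.50 ± 0.44 (SD) differed by 0.70 ± 0.35 (SE), or 1.63-fold, with a 95% interval of -0.14 to 1.55 (limma, adjusted p = 0.247). Without control 1 the difference was 1.04 and without control 2 it was 0.48, and neither passed.

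Neurod4, a bHLH factor of retina, midbrain and trigeminal neurons, was not well above background in any tumour. Its values ran from -7.64 to -5.83 in controls and from -7.66 to -6.15 in miR-124a tumours, and the groups overlapped. The probe is on chromosome 10 (129706046 to 129706105, minus strand). Of 7 photoreceptor and retina markers 5 were tested and 0 passed. At an unadjusted p under 0.05 the count was also 0 (limma).

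Myt1l had the smallest p of the 6 tested factors. At its brightest probe (chromosome 12, 30605595 to 30605654, plus strand) it stood at 2.26, 2.05 and 1.80 in control 1 to 3 and at 2.62, 3.05 and 2.65 in miR-124a 1 to 3. Each miR-124a tumour lay above each control, by at least 0.36. The means were 2.04 ± 0.23 and 2.77 ± 0.24 (SD, n = 3 each), a log2 difference of 0.74 ± 0.17 (SE), or 1.66-fold with a 95% interval of 1.25 to 2.22. It missed the threshold over all genes (limma, unadjusted p = 0.00452, adjusted p = 0.0714). It passed in 2 of 15 alternatives, with normexp background correction (0.79, adjusted p = 0.0328) and with a variance trend and robust estimation (0.74, adjusted p = 0.0398), and over all 15 the adjusted p ran from 0.0328 to 0.194. The difference stayed between 0.60 and 0.91 throughout.

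The other Myt1l probes gave the same direction. The array holds 6 probes for the gene, of which 4 were well above background in all 6 tumours, and in each of the 4 every miR-124a tumour exceeded every control. A probe further towards the 3′ end of the transcript (30607574 to 30607633) had -0.49, -0.80 and -0.86 in controls and -0.15, 0.22 and -0.13 in miR-124a tumours, a difference of 0.70. One upstream in the transcript (30539099 to 30539158) had -1.61, -2.27 and -2.33 against -1.52, -1.25 and -1.53, a difference of 0.64 with the groups parted by 0.08. These probes read the same RNA samples, so they check the probe and not the tumours.

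The remaining Myt1l probes stand on other transcript models of the array annotation. The probe at 30213831 to 30213890, on a separate cDNA, had -1.83, -2.32 and -1.63 in controls and -0.82, -0.93 and -1.11 in miR-124a tumours, a difference of 0.97. The probe at 30541974 to 30542033, on a predicted transcript, was well above background in 2 of 3 controls and 3 of 3 miR-124a tumours, so it entered the fit through the miR-124a group and is not counted with the 4. Its levels were -4.47, -5.71 and -4.93 against -4.06, -2.55 and -3.98, with miR-124a 2 far above the rest. The untested probe, at 30216068 to 30216127, was not well above background on any array.

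**Figure D2:**
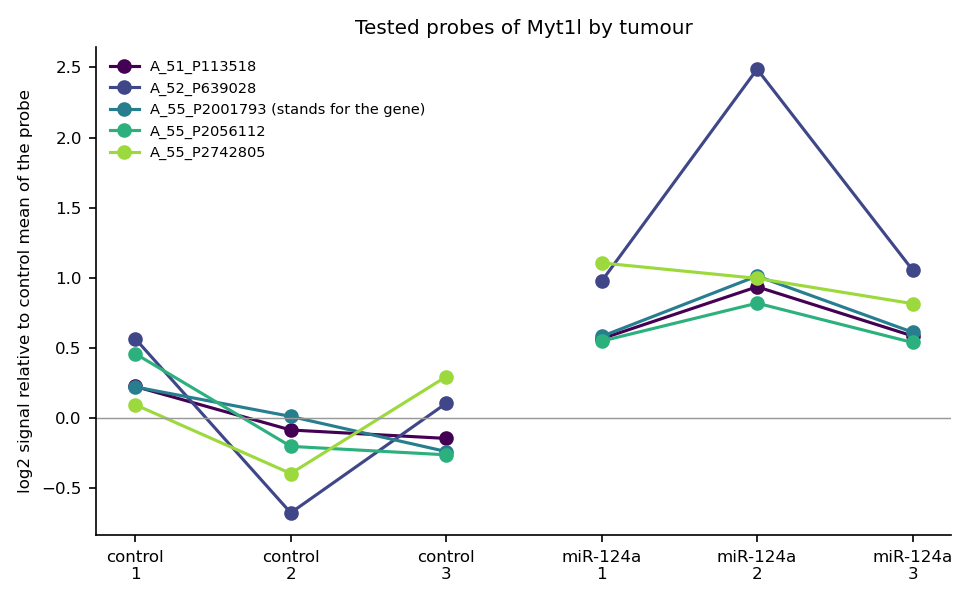
Signal of the 5 tested Myt1l probes in each tumour, in log2 units relative to the mean of the 3 controls at the same probe (horizontal line at 0). Each line joins the tumours of 1 group at 1 probe. The 4 probes well above background in all tumours exceed every control value in every miR-124a tumour, and the dim probe A_52_P639028, not well above background in 1 control, departs from them in miR-124a 2.

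Myt1, the relative of Myt1l that is expressed in progenitors and in young neurons, was closer between the groups. At its brighter probe (chromosome 2, 181562410 to 181562469, plus strand) it stood at 0.64, 0.64 and 1.45 in control 1 to 3 and at 1.58, 1.04 and 1.19 in miR-124a 1 to 3. Control 3 lay above miR-124a 2 and 3, so the groups overlapped. The means of 0.91 ± 0.47 and 1.27 ± 0.28 (SD) differed by 0.36 ± 0.26 (SE), with a 95% interval of -0.27 to 1.00 (limma, adjusted p = 0.407). The other probe, at 181562100 to 181562159, gave a difference of 0.43, again with control 3 highest among controls (-0.37) and miR-124a 1 highest in its group (-0.27). St18, the remaining Myt1-family gene, had 0.16 ± 0.25 (adjusted p = 0.712).

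**Figure D3:**
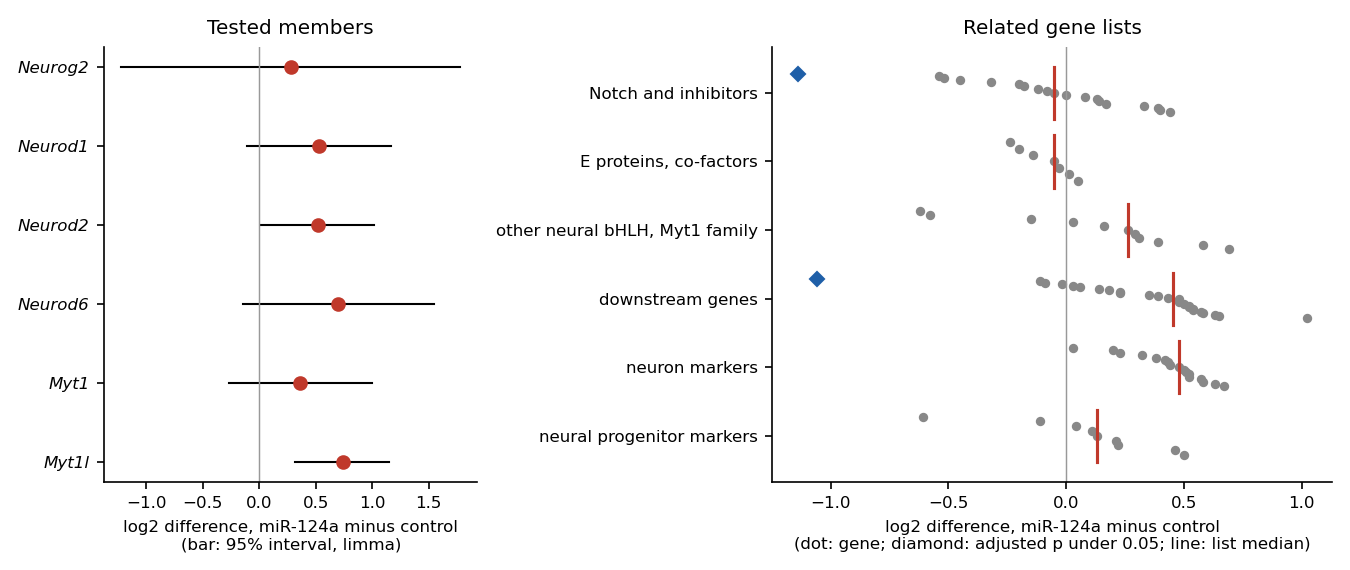
Left, log2 difference (miR-124a minus control) of the 6 tested factors with 95% intervals from limma. Right, the same difference for each tested gene of 6 related lists, where a diamond marks a gene past the adjusted threshold and the red line is the list median. All intervals but those of Neurod2 (0.02 to 1.02) and Myt1l (0.32 to 1.15) include 0, and the diamonds are Heyl and Isl1, both lower.

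Within a group the tumours did not rank the factors alike. Neurog2 and Myt1 were highest in control 3 among controls and in miR-124a 1 among treated tumours. Neurod2, Neurod6 and Myt1l were highest in control 1 and in miR-124a 2, and lowest in miR-124a 1. Neurod1 was highest in control 2 and miR-124a 2. These 2 sets of factors therefore peaked in different tumours of both groups.

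The size of these departures differed between the factors. Relative to the mean of its group, Neurog2 deviated by 0.93 in control 3 and 0.88 in miR-124a 1, and by -0.71 in control 1 and -1.14 in miR-124a 2. Neurod6 deviated by 0.67 in control 1 and 0.41 in miR-124a 2, and Neurod2 by 0.37 and 0.30 in those same tumours. Over the 6 tumours, with each gene set relative to its control mean, the root mean square difference was smallest between Neurod2 and Myt1l (0.19 log2 units) and between Neurod2 and Neurod6 (0.25), and largest between Neurog2 and Neurod6 (1.16). For Neurog2 and Myt1 it was 0.52, and Myt1 was closer to Neurod1 (0.48) and Neurod2 (0.51). The 2 sets above therefore rest only on which tumour of a group was highest. Shared RNA and array link all these values, so they are given as a description.

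**Figure D4:**
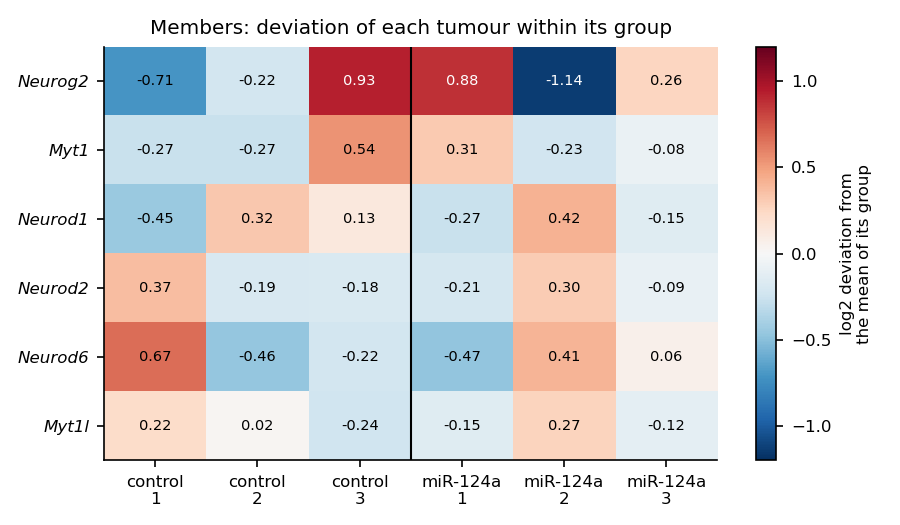
Deviation of each tumour from the mean of its own group, in log2 units, for the 6 tested factors (rows) in the 6 tumours (columns), red for above and blue for below. Neurog2 and Myt1 are reddest in control 3 and miR-124a 1, whereas Neurod2, Neurod6 and Myt1l are reddest in control 1 and miR-124a 2.

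The tumour order of Neurog2 and Myt1 was also counted in the other lists. This count was made after the values of the factors had been seen. Among 11 tested neural bHLH and Myt1-family genes outside the 9, 7 were highest in control 3 and in miR-124a 1, among them Atoh8, Nhlh1, Nhlh2, Hes6, St18 and Ferd3l, against 20.2% of all genes tested. Of 26 downstream genes 13 had this order, among them Insm1, Sox4, Sox11 and Ebf1 to Ebf3, which are known from newborn neurons. The same order was found in 4 of 7 E proteins and co-factors, 7 of 19 Notch genes and inhibitors, 3 of 5 retina markers and 2 of 6 endoderm markers. It was also found in 3 of 9 neural progenitor markers, 2 of 7 Merkel and hair cell markers and 0 of 6 astrocyte markers. The order of Neurod2, Neurod6 and Myt1l was found in 15.7% of all genes and in 7 of 17 neuron markers, Map2, Rbfox3, Snap25, Syt1, Syp, Stmn2 and Gap43, while 1 neuron marker, Dcx, had the order of Neurog2. It was also found in 3 of 9 endocrine, 2 of 6 mesoderm, 3 of 11 other neural bHLH, 5 of 26 downstream and 0 of 19 Notch-list genes. Over all genes, deviations from the group means had correlations of 0.34 between control 3 and miR-124a 1 and 0.27 between control 1 and miR-124a 2. No test was made of these counts.

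The genes most like a factor over the 6 tumours were sought among 21702 genes well above background on all arrays, by the same root mean square difference. This measure takes in the difference between the groups. A close gene therefore has a like group difference by construction, which is no separate result. Closest to Myt1l were Csmd2 (0.0612) and Erc2 (0.0626), with log2 differences between the groups of 0.68 for each (adjusted p = 0.0860 and 0.0851). Closest to Neurod2 were Serpini1 (0.0399) and Lrrc73 (0.0408), with 0.51 and 0.50. Erc2 encodes a protein of the presynaptic active zone and Serpini1 a neuronal protease inhibitor. For Neurod1 the closest were Gchfr and Rnf152, and for Myt1 they were 9530036O11Rik and AK140103. For Neurod6 they were probes named only by genome coordinate. Closest to Neurog2 were Ttc6 (0.201) and Tex11 (0.205), farther off than the neighbours of the other named factors.

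Proneural factors are held in check by Notch signalling, in which the ligands Dll1 and Jag1 on a young neuron activate Notch receptors on its neighbours, and Hes and Hey repressors follow. In a list of 19 such genes and other inhibitors, 1 fell, 0 rose and 18 did not pass, and the median was -0.05. The gene that fell was Heyl, a Hey-type repressor, which stood at 0.12, 0.79 and 0.45 in controls and -0.78, -0.59 and -0.67 in miR-124a tumours. Every miR-124a tumour was below every control, a log2 difference of -1.14 ± 0.18 (SE; limma, adjusted p = 0.0350). Heyl is also made by vascular smooth muscle, and Acta2, smooth muscle actin, fell by 1.14 in the same tumours (a call that held in 2 of 6 fits without 1 tumour), whose part in the Heyl value was not tested. The call was lost in all 6 fits that left out 1 tumour and held in 7 of 15 alternatives, with values from -1.30 to -0.93.

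Other genes of the Notch list lay near the threshold in both directions. Notch3, a receptor of vascular mural cells, had -0.52 ± 0.11 (adjusted p = 0.0609), and Sox9, a factor of glial and cartilage progenitors, had 0.40 ± 0.08 (adjusted p = 0.0590) at its brighter probe and -0.04 at the other. Id2, a bHLH protein without a DNA-binding part that sequesters E proteins, had 0.33 ± 0.09 (adjusted p = 0.0872). With normexp Notch3, Sox9 and Id2 passed, at -0.47 (limma, adjusted p = 0.0358), 0.43 (0.0171) and 0.37 (0.0337). Named for their role and not by the rule on smallest p, the neural Notch targets Hes1 and Hes5 had -0.45 and 0.13. Dll1, a ligand that proneural factors switch on, had -0.54 ± 0.17 (adjusted p = 0.110), with every miR-124a tumour below every control. Rest, the repressor of neuronal genes, was named likewise and had -0.32 ± 0.14 (adjusted p = 0.206), and its 3 tested probes ranged from -0.58 to -0.32.

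The E proteins that pair with proneural factors differed little between the groups. None of 7 such partners and co-factors passed (0 at an unadjusted p under 0.05 as well), and their median was -0.05. The E proteins themselves, Tcf3, Tcf12 and (outside the rule) Tcf4, had log2 differences of -0.14, -0.24 and 0.01, and Tcf4 probes ranged from -0.06 to 0.60. The co-repressor Cbfa2t3 had -0.20 ± 0.12 (adjusted p = 0.305).

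Among neural bHLH and Myt1-family genes outside the 9, 11 of 16 were tested and 0 passed in either direction, while 1 was higher and 1 lower at an unadjusted p under 0.05 (limma). The median was 0.26. Bhlhe22, a factor of postmitotic cortical and spinal neurons, had 0.69 ± 0.19 (adjusted p = 0.0872), and its values of -0.40, -0.63 and -0.72 in controls and -0.06, 0.49 and -0.10 in miR-124a tumours did not overlap. Hes6, which promotes neuronal differentiation downstream of neurogenins, had -0.62 ± 0.14 (adjusted p = 0.0696), and its levels of 2.25, 2.42 and 2.50 against 2.00, 1.57 and 1.75 did not overlap either.

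Genes that act downstream of the proneural factors leaned higher as a list but not gene by gene. Of 27 listed, 26 were tested, 22 of these had higher means with miR-124a, 0 rose past the threshold and 1 fell, with a median of 0.45 against -0.00 over all genes. At an unadjusted p under 0.05, 9 were higher and 1 lower. Of these 9, 6 are also among the neuron markers given with the cell types, namely Tubb3, Elavl3, Elavl4, Stmn2, Rbfox3 and Dcx, so the 2 lists are not separate observations. Tubb3 stood at 3.40, 3.56 and 3.54 in controls and 4.09, 4.21 and 3.91 in miR-124a tumours, a difference of 0.57 ± 0.11 (adjusted p = 0.0531). Eomes, the factor of intermediate progenitors that Neurog2 is known to switch on, had 1.02 ± 0.22 (adjusted p = 0.0656), with -3.68, -4.39 and -3.58 against -2.95, -2.71 and -2.91. Neither gene's groups overlapped. Elavl3, a neuronal RNA-binding protein, had 0.50 ± 0.13 (adjusted p = 0.0798). With normexp these 3 genes passed, Tubb3 at 0.71 (adjusted p = 0.0158), Eomes at 0.32 (0.0461) and Elavl3 at 0.55 (0.0397).

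The downstream gene that fell was Isl1, a LIM homeodomain factor of motor and sensory neurons, pancreatic islets and heart progenitors. It stood at -0.34, -0.11 and 0.09 in controls and at -0.93, -1.21 and -1.39 in miR-124a tumours, with no overlap. The log2 difference was -1.06 ± 0.17 (SE; limma, adjusted p = 0.0350), and its other tested probe gave -1.36. As with Heyl, the call was lost in each of the 6 fits that left out 1 tumour and held in 7 of 15 alternatives, with values from -1.21 to -0.81.

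Markers of neurons had higher means in the miR-124a group, as the 6 tested factors did. All 17 neuron markers had higher means with miR-124a and 0 passed over all genes, with 10 at an unadjusted p under 0.05 (limma) and a median of 0.48; with normexp 6 passed. Taken per tumour as the median over these markers relative to the control mean, the neuron level was 0.11, 0.02 and -0.20 in control 1 to 3 and 0.40, 0.65 and 0.30 in miR-124a 1 to 3. Myt1l, Neurod2 and Neurod6 shared its highest tumours, control 1 and miR-124a 2. Neurog2 and Myt1, highest in control 3 and miR-124a 1, did not, and Neurod1 shared only miR-124a 2. The lowest tumours matched less, since the neuron level was lowest in control 3 and miR-124a 3. Myt1l, Neurod2 and Neurod6 were lowest in miR-124a 1. Among controls Neurod2 and Neurod6 were lowest in control 2 and Myt1l in control 3. The part of the share of neurons in the values of these factors was not tested.

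Markers of the remaining neural cells differed less. The 9 neural progenitor markers had a median of 0.13, 0 passed, and their summed level was 89.7 to 102 in controls and 96.2 to 100 in miR-124a tumours. Nes, an intermediate filament of progenitors and also of developing muscle, had -0.61 ± 0.14 (adjusted p = 0.0703), while Pax6, a factor of dorsal progenitors upstream of Neurog2, had 0.46 ± 0.14 (adjusted p = 0.114). With normexp Nes passed, at -0.53 (limma, adjusted p = 0.0448), and Pax6 did not, at 0.31 (0.112). The 6 astrocyte markers had a median of 0.14 and the 6 oligodendrocyte markers of -0.16, and 0 of either list passed, with 1 astrocyte marker higher and 1 oligodendrocyte marker lower at an unadjusted p under 0.05 (limma).

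The other tissues of the teratoma were checked with the same fit. None of 6 endoderm, 6 ectoderm and 5 pluripotency markers passed (0 calls; at an unadjusted p under 0.05, 1 endoderm and 1 ectoderm marker lower and 1 ectoderm marker higher, by limma), and of 6 mesoderm markers 1, Acta2, fell. The summed skeletal muscle level was 401 to 630 in controls and 159 to 226 in miR-124a tumours. The part of this lower level in values scaled within each array was not tested. With quantile scaling all 6 tested factors again had higher means, with a median over all genes of 0.02. Quantile scaling also sets every array to a common distribution, so it is no test of that part.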

How the data were processed

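The 6 RNA samples were labelled with Cy3 and read on 1-colour Agilent arrays, per the labels. The deposited scanner files hold spot intensity already corrected for background by Agilent Feature Extraction 11.5.1.1, per the submitters' processing notes. A deposited table holds the authors' log2 values, which were the log2 intensity shifted by a constant per array (SD of the difference 0.0029), with column medians from -3.07 to -2.97. It ran in the direction of signal, was not centred per probe, and no source used here names the tool behind it.

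Spots of a probe were averaged, 22 outlier probes were left out, and log2 intensity was taken relative to the 75th percentile over non-control spots of the array. A probe entered the fit where at least 1 group had it well above background on its 3 arrays, and the brightest tested probe stood for a gene. All 6 arrays were fitted without covariates with limma 3.58.1 in R 4.3.3 (lmFit, eBayes), adjusting over 22946 genes at a threshold of 0.05; 742 passed, 112 higher and 630 lower. The fit was tested on simulated data. Each array is a tumour of a different mouse by the labels. Gene names came from accessions through RefSeq (32994 probes), symbols (10224) or older symbols (520), and 12867 probes kept the name in the file. The 9 members and all lists were chosen with earlier results of these data known. Named genes are the members, up to 4 genes per list by smallest p, genes past the threshold and the 2 genes most like a member. The alternatives were quantile scaling, normexp (offset 50) with quantile scaling, the authors' table, other filters, averaging a gene's probes, a replicate block, a variance trend, array weights and leaving out each tumour. Promoters are RefSeq sequence, and figures were drawn with matplotlib 3.10.9.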

Additional observations from a re-analysis of the deposited data

How the results depend on the processing

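Of 9 factors 0 passed, and this count was 1 (Myt1l) with normexp background correction and with a variance trend with robust estimation, and 0 in the other alternatives. The genes of the 4 pathway lists that passed numbered 2, and 5 with quantile scaling, 10 with normexp, 10 with the variance trend, 0 without the filter on dim probes and 0 to 1 when 1 tumour was left out. Over all genes the 742 calls became 1542 with normexp, 1723 with the variance trend, 96 of 37001 without the filter, and 0 to 368 when 1 tumour was left out (0 without miR-124a 2, with 4119 at an unadjusted p under 0.05 by limma). The share of lower calls was 84.9%, and 62.5% with normexp. The cause of these changes was not tested. When 1 tumour was left out Neurog2 ranged from -0.16 (miR-124a 1) to 0.85 (miR-124a 2), with -0.07 for control 1, and the other 5 tested factors kept a positive sign in all 15 alternatives. With array weights the log2 difference of Neurog2 was 0.58 against 0.28 in the main fit, and that of Neurod6 was 0.53 against 0.70. With the replicate block 0 genes, 0 factors and 0 pathway genes passed (4954 genes at an unadjusted p under 0.05, limma). Same-numbered tumours had correlations of -0.16, -0.04 and -0.06 in their deviations from the group means. Tumours with different numbers had correlations from -0.21 to 0.34. With 3 tumours per group such values cannot settle whether the numbers pair the tumours, and the labels give no pairing. Signal over background left Neurog1, Neurod4 and Atoh1 untested.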
